A study of Mus musculus with 6 samples.

Results

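Class II of the major histocompatibility complex (MHC) and the machinery that loads peptides onto MHC molecules were examined through 10 genes in mouse heart ventricle: H2-Ab1, H2-Aa, H2-Eb1, H2-DMa, Cd74, Ciita, Tap1, Tap2, Tapbp and B2m. The genes are a fixed list of symbols, and each matched 1 probe set, so all 10 were measured among the 20239 genes with a symbol on the array. The genes were selected on their log2 difference between genotypes on these same arrays, so that difference is given below as a description, with no test. RNA came from ventricles of mice aged 3.5 weeks of the 129/Sv strain, all labelled male, with 3 arrays labelled Hspa4-/- and 3 labelled Hspa4+/+ (wild type). The design counts 3 mice for each genotype. Hspa4 is a cytosolic Hsp110-type chaperone, and the design of its disrupted allele is not stated in these sources. Values are log2 intensities from Affymetrix Mouse Gene 1.0 ST arrays, so a difference of 1 is a doubling of signal, and levels of different probe sets are not set against each other.

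MHC class II molecules present peptides from endosomes to CD4 T cells, and are made mainly by dendritic cells, macrophages and B cells, which in the heart lie between the muscle cells. An alpha and a beta chain assemble with the invariant chain, which blocks the groove until it is degraded in endosomes, and the chaperone H2-DM then exchanges its remnant for peptide. Ciita is the coactivator that switches these genes on through shared promoter elements, and interferon gamma induces it in many cell types. MHC class I molecules take peptides made by the proteasome, carried into the endoplasmic reticulum by the Tap1 and Tap2 transporter and loaded with the help of tapasin, the product of Tapbp, and they need B2m as their light chain.

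The promoters of H2-Aa, H2-Eb1 and Tap1 are printed because class II genes, which moved together from array to array below, are known to share promoter elements. RefSeq promoters (GRCm38.p6) were at hand for 6 of the 10 genes, and the stretches given end at the base before the transcription start and run 5′ to 3′ on the gene's strand. Capitals mark matches on either strand to the Y box (CTGATTGG, an inverted CCAAT box) and to the cAMP response element, which resembles the X2 box (TGACGTCA).
H2-Aa (chr17:34287824-34287973, minus strand): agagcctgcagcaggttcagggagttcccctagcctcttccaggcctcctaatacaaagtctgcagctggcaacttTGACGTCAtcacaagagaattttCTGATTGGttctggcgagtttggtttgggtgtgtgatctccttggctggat
H2-Eb1 (chr17:34305717-34305866, plus strand): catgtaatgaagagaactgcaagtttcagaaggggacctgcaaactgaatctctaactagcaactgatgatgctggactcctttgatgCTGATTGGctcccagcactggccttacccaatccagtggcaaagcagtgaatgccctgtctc
Tap1 (chr17:34187331-34187555, plus strand): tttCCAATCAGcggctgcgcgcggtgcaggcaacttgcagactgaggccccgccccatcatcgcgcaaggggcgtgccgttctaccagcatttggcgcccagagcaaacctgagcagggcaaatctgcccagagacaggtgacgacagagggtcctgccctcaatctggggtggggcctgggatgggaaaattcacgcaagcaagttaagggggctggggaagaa
The Y box stood 51 to 44 bases before the start in H2-Aa and 62 to 55 bases before it in H2-Eb1, and on the opposite strand of Tap1, 222 to 215 bases before. Among all 32851 RefSeq promoter windows of 300 bases, 4.10% held it. The cAMP response element was matched in H2-Aa, 74 to 67 bases before the start, and in 1.79% of all windows. Neither motif was matched in the windows of H2-DMa, Tapbp or B2m. The motifs do not overlap in the printed stretches, and a match describes letters only. Longer motifs for the X box and for an interferon response element were also searched, and their matches are not given here.

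On the arrays as a whole, Hspa4 itself did not match the label of 1 array. The array labelled Hspa4-/- replicate 1 read 9.33, while replicates 2 and 3 of that label read 6.63 and 6.75, against 9.48 to 9.74 on the wild-type arrays. It also carried Xist, the RNA of the inactive X chromosome, at 7.68, where the other 5 arrays read 5.51 to 5.69, although it too is labelled male. The 10 genes, the lists and the genes named from them are therefore given with all 6 arrays and with the 5 arrays that remain without it. In limma's test across all genes, 0 of 20239 genes had an adjusted p under 0.05 with 6 arrays (2261 at an unadjusted p under 0.05, or 11.2%, with 1141 higher and 1120 lower) and 89 with 5 arrays (0.440% of genes; 14.9% at an unadjusted p under 0.05, with 1730 higher and 1288 lower). The count of 89 ran from 2 to 875 when 1 further array was left out. Array medians lay between 6.42 and 6.48. The heart muscle genes Myh6, at 12.56 to 12.65 on the arrays labelled Hspa4-/- and 12.48 to 12.59 in wild type, and Tnnt2, at 12.64 to 12.74 and 12.61 to 12.76 in the same order, were measured on every array with overlapping groups. The mean level of the longer list of heart muscle markers, given below, did not overlap.

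The class II chain genes H2-Ab1, H2-Aa and H2-Eb1, and Cd74 for the invariant chain, were higher on the arrays labelled Hspa4-/- replicates 2 and 3 than on any wild-type array. All of them stood near or below wild type on the array labelled Hspa4-/- replicate 1. H2-Ab1, the beta chain of the I-A molecule, read 8.83 and 8.49 on replicates 2 and 3 labelled Hspa4-/-, with 7.70 on replicate 1, against 8.02, 7.79 and 8.0 in wild type. The first pair stood above every wild-type array and the array labelled replicate 1 below every one of them. With 6 arrays H2-Ab1 averaged 8.34 ± 0.58 under the label Hspa4-/- and 7.94 ± 0.13 in wild type (SD, n = 3 each), a difference of 0.40 (SE 0.23). With 5 arrays the difference was 0.72 (SE 0.11), or 1.65-fold.

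H2-Aa, the alpha chain that pairs with H2-Ab1, read 8.78 and 8.44 on replicates 2 and 3 labelled Hspa4-/-, with 7.29 on replicate 1, against 7.96, 7.56 and 8.01 in wild type. It showed the widest spread of the 10 genes in both groups, with an SD of 0.78 among arrays labelled Hspa4-/- and 0.25 among wild-type arrays (n = 3 each), and again the array labelled replicate 1 was the lowest of all. Its difference was 0.32 (SE 0.31) with 6 arrays and 0.76 (SE 0.15), or 1.70-fold, with 5. H2-Eb1, the beta chain of the I-E molecule, read 8.35 and 7.86 on replicates 2 and 3 labelled Hspa4-/-, with 7.51 on replicate 1, against 7.59, 7.47 and 7.61 in wild type. Here the array labelled replicate 1 lay inside the wild-type range. The difference was 0.35 (SE 0.17) with 6 arrays and 0.55 (SE 0.13), or 1.46-fold, with 5.

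Cd74, the invariant chain, read 9.15 and 8.49 on replicates 2 and 3 labelled Hspa4-/-, with 7.87 on replicate 1, against 8.07, 8.02 and 8.16 in wild type. Its wild-type arrays lay close together, with an SD of 0.07 (n = 3), while replicate 2 of the arrays labelled Hspa4-/- exceeded replicate 3 by 0.66. The difference was 0.42 (SE 0.25) with 6 arrays and 0.74 (SE 0.16), or 1.67-fold, with 5. In H2-Ab1, H2-Aa, H2-Eb1 and Cd74 alike, the order of the highest arrays was the same: the array labelled Hspa4-/- replicate 2, then replicate 3, then the wild-type arrays. The SD among the 3 arrays labelled Hspa4-/- was larger in these 4 genes than in at least 99.6% of all genes. H2-Ab1, H2-Aa and Cd74 had replicates 2 and 3 above and replicate 1 below every wild-type array, a pattern held by 3.07% of all genes. Both shares use the arrays on which the genes were selected, so they are a description with no test.

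**Figure D1:**
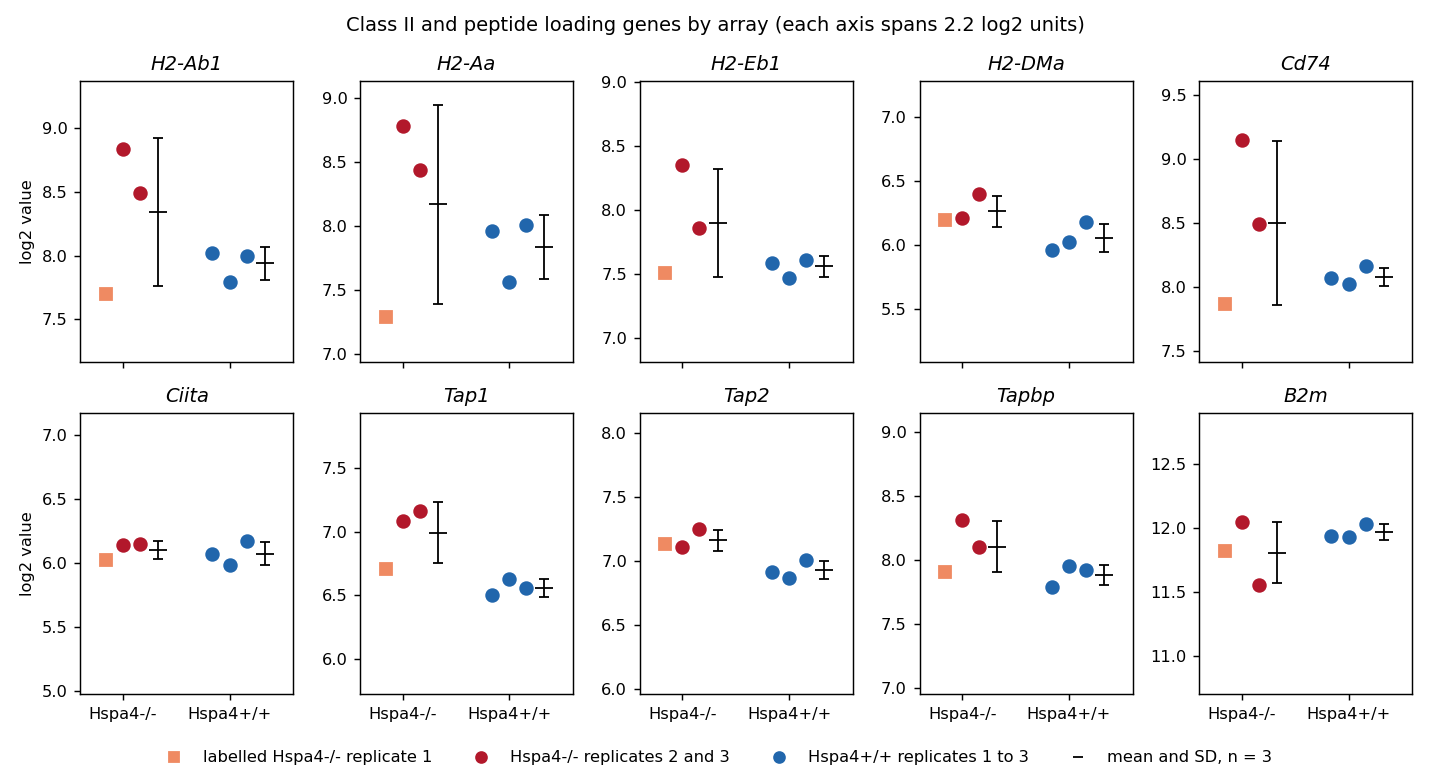
Log2 value of each of the 10 genes (vertical axes, each spanning the same number of log2 units) on the arrays labelled Hspa4-/- (left in each panel) and Hspa4+/+ (right); points are arrays and black bars the mean and SD of 3 arrays. In H2-Ab1, H2-Aa, H2-Eb1 and Cd74 the arrays labelled Hspa4-/- replicates 2 and 3 lie above all wild-type arrays and the square, replicate 1, among or below them, while Tap1, Tap2 and H2-DMa have all 3 arrays labelled Hspa4-/- above wild type.

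The other class II genes differed by less. H2-DMa, the alpha chain of the peptide exchanger H2-DM, read 6.19, 6.21 and 6.40 on the arrays labelled Hspa4-/- replicates 1 to 3, against 5.96, 6.02 and 6.18 in wild type. All 3 arrays labelled Hspa4-/- stood above wild type, though the nearest arrays of the groups were 6.19 and 6.18. The difference was 0.21 (SE 0.08) with 6 arrays and 0.25 (SE 0.09) with 5. Ciita, the coactivator of class II transcription, read 6.02, 6.14 and 6.15 on the arrays labelled Hspa4-/- replicates 1 to 3, against 6.07, 5.98 and 6.17 in wild type. Its groups overlapped with 6 and with 5 arrays, and its difference of 0.03 (SE 0.07) with 6 arrays and 0.07 (SE 0.08) with 5 was within the spread between arrays. Both H2-DMa and Ciita read below the median of every array (6.42 to 6.48). The table holds no background level, so how far either stood above background is not known.

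Among the peptide loading genes, Tap1 was higher on every array labelled Hspa4-/-, the array labelled replicate 1 included. Tap1, a subunit of the peptide transporter, read 6.71, 7.08 and 7.16 on the arrays labelled Hspa4-/- replicates 1 to 3, against 6.50, 6.63 and 6.56 in wild type. The array labelled replicate 1 was 0.15 above the wild-type mean and the others 0.52 and 0.60 above it. The difference was 0.42 (SE 0.11) with 6 arrays and 0.56 (SE 0.07), or 1.48-fold, with 5. Tap2, the partner subunit, read 7.13, 7.11 and 7.25 on the arrays labelled Hspa4-/- replicates 1 to 3, against 6.91, 6.87 and 7.01 in wild type. In Tap2 the array labelled replicate 1 stood among the other arrays of its label, and the difference was 0.23 (SE 0.07) with 6 arrays and 0.25 (SE 0.08) with 5.

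Tapbp, which encodes tapasin, the bridge between the transporter and class I molecules, read 7.90, 8.31 and 8.10 on the arrays labelled Hspa4-/- replicates 1 to 3, against 7.79, 7.95 and 7.92 in wild type. Replicates 2 and 3 were above every wild-type array and replicate 1 was inside their range. Its difference was 0.22 (SE 0.10) with 6 arrays and 0.32 (SE 0.09), or 1.25-fold, with 5. B2m, the light chain of class I molecules, went no common way: it read 11.82, 12.05 and 11.56 on the arrays labelled Hspa4-/- replicates 1 to 3, against 11.94, 11.93 and 12.03 in wild type. The array labelled replicate 2 was the highest of the 6 and replicate 3 the lowest. B2m differed by −0.16 (SE 0.11) with 6 arrays and −0.17 (SE 0.13) with 5, and by 0.08 when replicate 3 was left out of the 5.

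**Figure D2:**
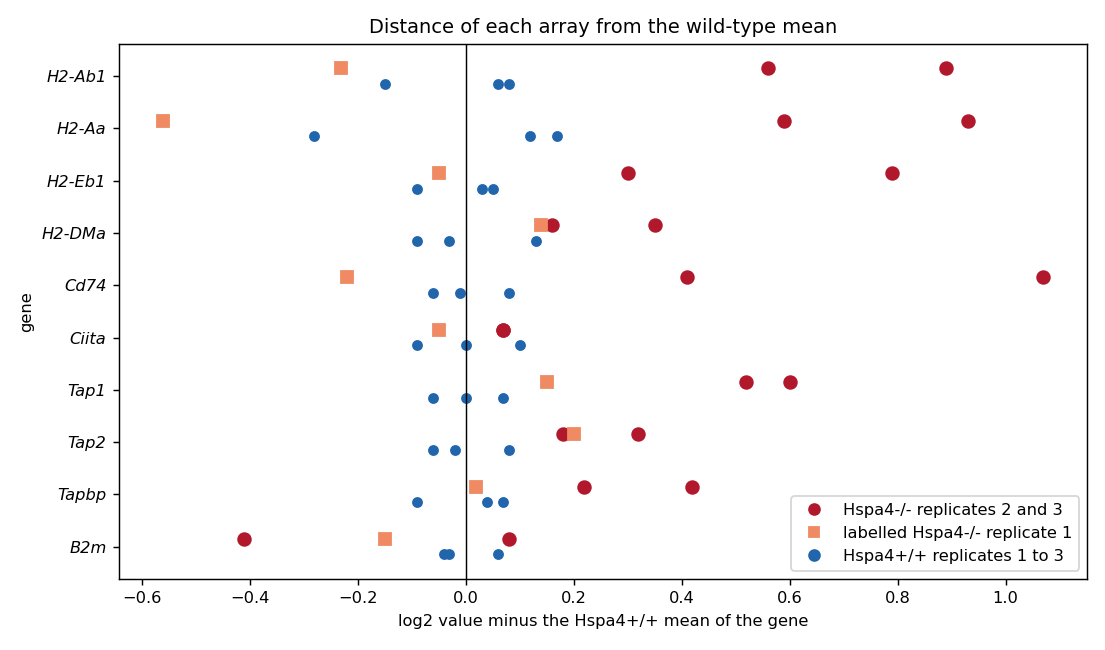
Log2 value of each array minus the Hspa4+/+ mean of the gene (horizontal axis) for the 10 genes (vertical axis); the upper row of each gene holds the arrays labelled Hspa4-/- (circles, replicates 2 and 3; square, replicate 1) and the lower row the wild-type arrays. Cd74 on replicate 2 lies farthest from wild type, at 1.07, and H2-Aa on replicate 1 farthest below it, at −0.56.

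Over the 10 genes the median difference was 0.28 with 6 arrays and 0.43 with 5, where all genes had a median of −0.01 and −0.02. With 6 arrays, 3 of the 10 genes (H2-DMa, Tap1 and Tap2) had every array labelled Hspa4-/- above every wild-type array, as did 6.08% of all genes, and none of the 10 had every one below (9.07% of all genes). With 5 arrays 8 of the 10 did, Ciita and B2m being the exceptions, as did 14.4% of all genes (33.3% had groups that did not overlap in either direction). A difference of at least 0.5 with 5 arrays was reached by H2-Ab1, H2-Aa, H2-Eb1, Cd74 and Tap1, and by 0.623% of all genes. These counts use the contrast on which the genes were chosen. Nearest to that size from below stood Tapbp at 0.32.

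Other class II genes, taken from a list, did not follow H2-Ab1, H2-Aa and H2-Eb1. Of 20 measured genes for class II molecules, their proteases and their transcriptional control, 0 passed in either form (limma, adjusted p under 0.05, against 0.440% of all genes with 5 arrays), and at an unadjusted p under 0.05 1 was higher and 4 were lower with 6 arrays and again with 5, against 11.2% and 14.9% of all genes in either direction. The median difference was 0.00 with 6 arrays and 0.01 with 5. Every array labelled Hspa4-/- stood above wild type in 0 with 6 arrays (6.08% of all genes) and 2 with 5 (14.4%). Every one stood below it in 6 with 6 arrays (9.07%) and 7 with 5 (18.9%). H2-DMb2, a beta chain of H2-DM, differed by −0.16 (SE 0.07; limma, adjusted p = 0.440) with 6 arrays and −0.19 with 5, while its close copy H2-DMb1 differed by 0.07 and −0.04. Such copies can share probes, so their split is uncertain.

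Factors that bind the printed elements were measured too, and none passed. Nfyb, a subunit of the Y box binding factor NF-Y, read 6.95, 6.91 and 6.93 on the arrays labelled Hspa4-/- replicates 1 to 3, against 7.29, 7.16 and 7.19 in wild type, a difference of −0.28 (SE 0.06; limma, adjusted p = 0.221) with 6 arrays and −0.29 with 5. Nfya, another NF-Y subunit, named after its values were seen, differed by 0.11 with 6 arrays and 0.08 with 5, with overlap. Creb1, which can bind the X2 element, differed by −0.25 (SE 0.07; limma, adjusted p = 0.245) with 6 arrays and −0.26 with 5. In Nfyb and Creb1 every array labelled Hspa4-/- lay below wild type. Rfxank, a subunit of the factor RFX, which binds the X box (matches not given here), differed by 0.24 (SE 0.09, limma, adjusted p = 0.353) with 6 arrays and 0.28 with 5. Its partners Rfx5 and Rfxap, named after their values were seen, differed by −0.05 and 0.00 with 6 arrays and −0.04 and 0.02 with 5.

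Among class I heavy chains, 0 of 15 measured genes passed in either form (limma), with 1 higher and 0 lower at an unadjusted p under 0.05 with 6 arrays (11.2% of all genes in either direction) and 4 higher and 0 lower with 5 (14.9%). The median difference was 0.07 with 6 arrays and 0.05 with 5. Cd1d1, a class I-like molecule that presents lipids, differed by 0.27 (SE 0.09; limma, adjusted p = 0.295) with 6 arrays and 0.33 with 5, with no overlap between groups. H2-T22 differed by 0.32 with 6 arrays and 0.35 with 5, H2-Q1 by 0.12 and 0.06, and H2-M2 by −0.11 and −0.09. The classical heavy chain H2-K1, named after its values were seen, read 9.92 and 9.42 on replicates 2 and 3 labelled Hspa4-/-, with 8.99 on replicate 1, against 9.23, 9.13 and 9.24 in wild type. That is the array order of Cd74, and its difference was 0.24 (SE 0.18; limma, adjusted p = 0.706) with 6 arrays and 0.47 (SE 0.13; limma, adjusted p = 0.154) with 5. Class I heavy chains are near-identical in long stretches, so signal may be shared among their probe sets.

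Genes that supply and load class I peptides were mixed. Of 13 measured, 0 passed in either form (limma), with 2 higher and 1 lower at an unadjusted p under 0.05 with 6 arrays (11.2% of all genes in either direction) and 1 each way with 5 (14.9%). Psme1, a subunit of the interferon-inducible proteasome activator, read 9.83, 10.25 and 10.21 on the arrays labelled Hspa4-/- replicates 1 to 3, against 9.87, 9.82 and 9.70 in wild type. Its difference was 0.30 (SE 0.11; limma, adjusted p = 0.358) with 6 arrays and 0.43 (SE 0.08; limma, adjusted p = 0.0588) with 5. The immunoproteasome subunit Psmb10 differed by 0.19 with 6 arrays and 0.18 with 5, and the peptidase Tpp2 by −0.22 and −0.16. Canx, the chaperone calnexin that holds new heavy chains, differed by −0.27 (SE 0.09; limma, adjusted p = 0.295) with 6 arrays and −0.26 with 5, and each array labelled Hspa4-/- was below wild type.

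Tap1, Tap2, H2-DMa, H2-Ab1, H2-Aa and H2-Eb1 lie in 1 stretch of chromosome 17, so their neighbours could be read in order, while Cd74 lies on chromosome 18 and Ciita on 16. From H2-K1 to H2-Eb2 the RefSeq table lists 20 protein-coding genes, all measured, of which those 6 belong to the 10. Of the other 14, 3 had every array labelled Hspa4-/- above wild type with 6 arrays (6.08% of all genes) and 1 had every one below (9.07%). With 5 arrays 4 were above (14.4%) and 2 below (18.9%), and 0 passed (limma) with 6 or 5 arrays. Their median difference was 0.09 with 6 arrays and 0.12 with 5. Brd2, next to H2-DMa, differed by 0.22 with 6 arrays and 0.31 with 5, where H2-DMa and Tap2 stood at 0.25. Psmb9 and Psmb8, immunoproteasome genes on either side of Tap1, differed by 0.11 and 0.12 with 6 arrays and 0.16 and 0.15 with 5, and their groups overlapped in both forms. H2-Eb2, next to H2-Eb1, differed by 0.04 and 0.02. H2-Ob, between Tap2 and H2-Ab1, whose product restrains H2-DM, differed by −0.19 with 6 arrays and −0.24 (SE 0.08; limma, adjusted p = 0.239) with 5. The neighbours were named for their place, after values were seen.

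**Figure D3:**
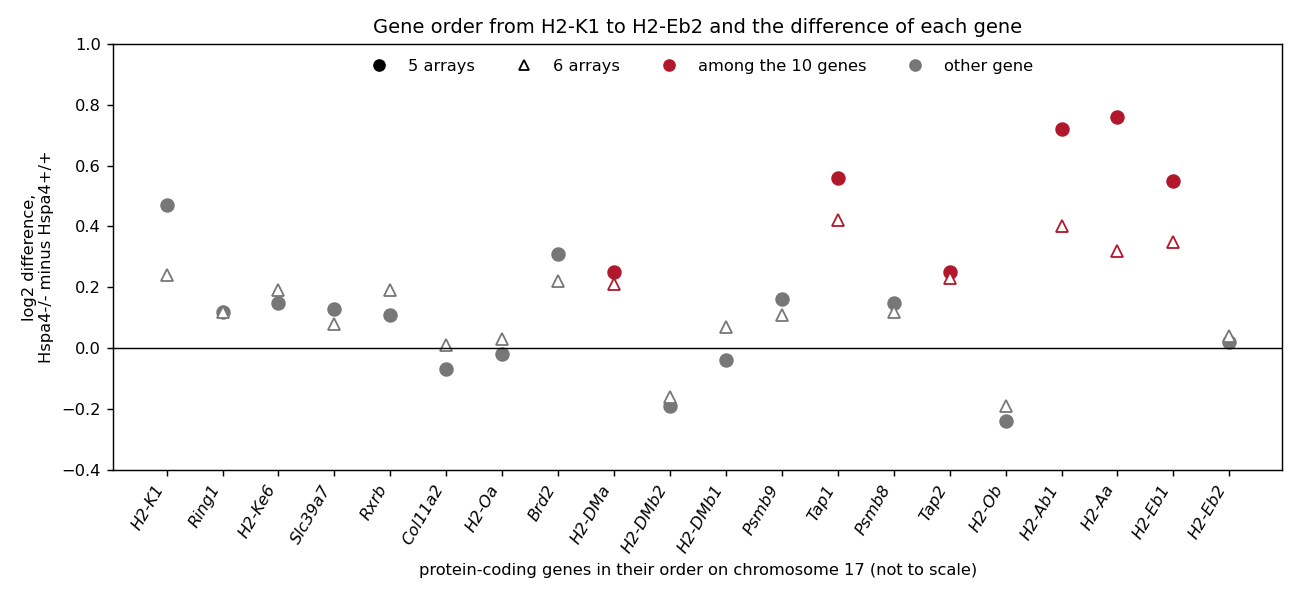
Log2 difference, arrays labelled Hspa4-/- minus Hspa4+/+ (vertical axis), of the 20 protein-coding genes from H2-K1 to H2-Eb2 in their order on chromosome 17 (horizontal axis, not to scale); filled circles use 5 arrays, open triangles 6. The genes among the 10, in red, stand at 0.25 to 0.76 with 5 arrays, and the genes directly beside them at 0.31 (Brd2), −0.19 (H2-DMb2), 0.16 (Psmb9), 0.15 (Psmb8), −0.24 (H2-Ob) and 0.02 (H2-Eb2).

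Interferon gamma induces both class II and peptide loading genes, and its response genes were described with the same arrays. Of 23 measured, 0 passed in either form (limma), with 3 higher and 0 lower at an unadjusted p under 0.05 with 6 arrays (11.2% of all genes in either direction) and 5 higher and 0 lower with 5 (14.9%). The median difference was 0.06 with 6 arrays and 0.16 with 5. With 6 arrays 17 had a difference above 0 and 6 below (9278 of 20239 genes in all were above). With 5 arrays 20 were above 0 and 3 below (8770 in all above). Every array labelled Hspa4-/- stood above wild type in 3 with 6 arrays (6.08% of all genes) and 6 with 5 (14.4%), and below it in 0 in both forms (9.07% and 18.9%). Irgm2, an immunity-related GTPase, read 7.03, 7.59 and 7.26 on the arrays labelled Hspa4-/- replicates 1 to 3, against 6.78, 6.91 and 6.64 in wild type, with no overlap. Its difference was 0.51 (SE 0.13; limma, adjusted p = 0.245) with 6 arrays and 0.65 (SE 0.12; limma, adjusted p = 0.0592) with 5. Irgm1, of the same family, differed by 0.36 (SE 0.17; limma, adjusted p = 0.466) and 0.55 (SE 0.13; limma, adjusted p = 0.108).

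The transcription factors of that response, Irf1 and Irf8, differed by 0.18 and 0.17 with 6 arrays (limma, adjusted p = 0.382 and 0.434) and 0.21 and 0.18 with 5, and in each every array labelled Hspa4-/- was above wild type. The chemokine genes Cxcl9 and Cxcl10, named after their values were seen, differed by −0.01 and 0.02 with 6 arrays and by 0.03 each with 5. The immunity-related GTPase Igtp, also named after its values were seen, differed by 0.32 (limma, adjusted p = 0.659) with 6 arrays. With 5 arrays Igtp differed by 0.61 (limma, adjusted p = 0.0588). Type I interferon response genes had a median difference of −0.01 in both forms, with 0 of 18 passing (limma) and 1 each way at an unadjusted p under 0.05 in each (11.2% and 14.9% of all genes). Stat2 differed by 0.27 (SE 0.07; limma, adjusted p = 0.246) with 6 arrays and 0.30 with 5. Isg20 differed by −0.17 and −0.18, Oasl1 by 0.14 and −0.0048 and Oas2 by −0.12 and −0.22.

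**Figure D4:**
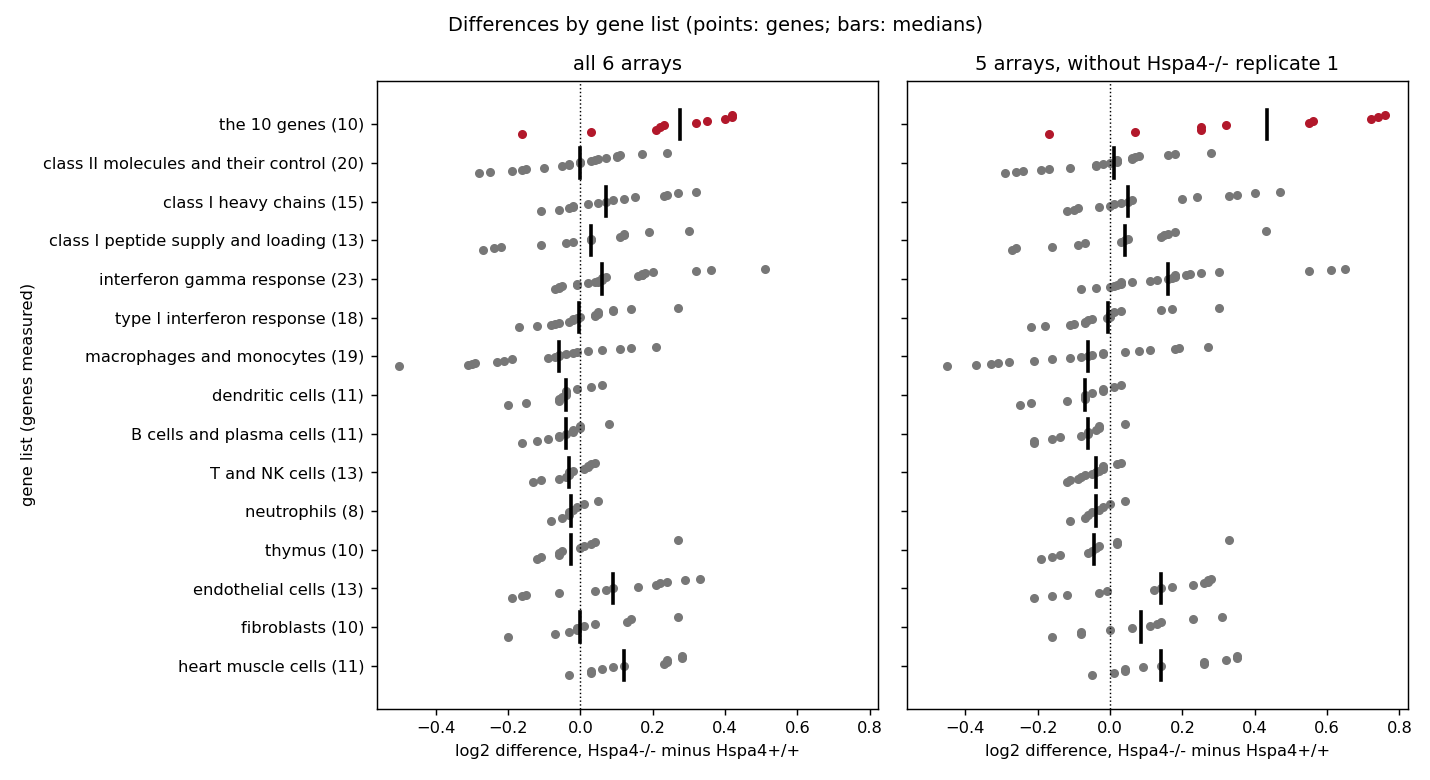
Log2 difference, arrays labelled Hspa4-/- minus Hspa4+/+ (horizontal axes), of every measured gene of each list (vertical axis, with the number of genes); points are genes, bars medians, the left panel uses 6 arrays and the right 5. The 10 genes, in red and chosen with this difference known, have medians of 0.28 and 0.43, and the interferon gamma response genes 0.06 and 0.16.

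Markers of the cells that carry class II molecules were set beside these values. In RNA from whole ventricle, fewer cells of a type and less RNA per cell cannot be told apart. No marker gene passed in either form (limma). Of 19 measured markers of macrophages and monocytes, 14 had a difference below 0 with 6 arrays (10961 of 20239 genes in all), and at an unadjusted p under 0.05 1 was higher and 6 were lower (11.2% of all genes in either direction). With 5 arrays 13 were below 0, 2 were higher and 6 lower at that p (14.9%), and 4 had every array above wild type (14.4%) and 7 every one below (18.9%). Their mean log2 level was 6.93 to 6.99 on the arrays labelled Hspa4-/- and 7.02 to 7.10 in wild type, without overlap. H2-Ab1 and Cd74 lay above wild type on replicates 2 and 3 of the label Hspa4-/-, where the mean of these markers lay below it, and below wild type on replicate 1, as that mean did. Csf1r, the receptor that macrophages need to survive, differed by −0.23 (SE 0.08; limma, adjusted p = 0.313) with 6 arrays and −0.28 with 5, and Adgre1, a surface receptor of macrophages, by −0.21 (SE 0.07; limma, adjusted p = 0.291) and −0.21. In Csf1r, Adgre1 and Cd68, which differed by −0.07 and −0.08, every array labelled Hspa4-/- was below wild type, the array labelled replicate 1 included. This held for 7 of the 19 markers and 9.07% of all genes with 6 arrays. Other markers went the other way. C1qc and Mertk, named after their values were seen, differed by 0.21 and 0.14 with 6 arrays, with overlap. With 5 arrays C1qc differed by 0.27 and Mertk by 0.19, and their groups did not overlap. Ptprc, the leukocyte antigen CD45, differed by −0.19 and −0.16 with overlap.

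Of 11 dendritic cell markers 2 had a difference above 0 and 9 below with 6 arrays and with 5, with a mean level of 5.95 to 6.03 on the arrays labelled Hspa4-/- and 5.98 to 6.09 in wild type. Among all 20239 genes 10961 lay below 0 with 6 arrays and 11469 with 5. At an unadjusted p under 0.05 (limma), 0 of these markers were higher and 1 lower in each form (11.2% and 14.9% of all genes in either direction). Itgax, the integrin CD11c, and the growth factor receptor Flt3 each differed by −0.04 with 6 arrays and by −0.07 and −0.02 with 5. Of 11 markers of B and plasma cells 9 lay below 0 with 6 arrays and 10 with 5, where 5 had every array below wild type (18.9% of all genes), with a mean level of 5.76 to 5.91 on the arrays labelled Hspa4-/- and 5.83 to 5.92 in wild type. At that unadjusted p (limma) 0 were higher in both forms, and 0 were lower with 6 arrays and 2 with 5. The B cell genes Cd79a and Ms4a1 differed by −0.16 and 0.00 with 6 arrays and −0.21 and −0.03 with 5. Of 13 markers of T and NK cells 8 lay below 0 with 6 arrays and 11 with 5, with a mean level of 5.89 to 6.0 on the arrays labelled Hspa4-/- and 5.92 to 6.06 in wild type. At the same unadjusted p (limma) 0 were higher and 0 lower in both forms. Cd3e, Cd4 and Ncr1 differed by 0.01, −0.11 and 0.02 with 6 arrays and −0.11, −0.09 and 0.03 with 5.

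Neutrophil markers had mean levels of 5.57 to 5.65 on the arrays labelled Hspa4-/- and 5.60 to 5.65 in wild type, with S100a8 differing by 0.01 with 6 arrays and −0.03 with 5. Thymus markers had mean levels of 5.86 to 5.96 and 5.83 to 6.01 in the same order. Their gene Rag1 read 5.97, 5.89 and 5.76 on the arrays labelled Hspa4-/- replicates 1 to 3, against 5.87, 5.79 and 5.97 in wild type. Endothelial cells can make class II in some settings. Their 13 markers had a mean level of 8.69 to 8.79 on the arrays labelled Hspa4-/- and 8.61 to 8.67 in wild type, without overlap. The single genes were mixed. With 6 arrays 9 had a difference above 0 and 4 below (9278 of 20239 genes in all above), and with 5 arrays 8 and 5 (8770 in all above). With 6 arrays they ran from −0.19 (Cd36, every array labelled Hspa4-/- below wild type) to 0.33 (Egfl7, every one above). Both were named after their values were seen. Pecam1 differed by 0.04 with 6 arrays and 0.12 with 5. Fibroblast markers stood at 8.32 to 8.53 and 8.34 to 8.40. Of these 10 markers 5 had a difference above 0 and 5 below with 6 arrays (median 0.00), and 7 and 3 with 5 (median 0.08). Col1a1 had the largest difference of the 10, 0.27 with 6 arrays and 0.31 with 5, with overlap in both. It stood above the wild-type mean by 0.20, 0.03 and 0.59 on the arrays labelled Hspa4-/- replicates 1 to 3. Heart muscle markers stood at 12.09 to 12.20 and 11.95 to 12.02, without overlap. Of these 11 markers 10 had a difference above 0 in both forms (9278 and 8770 of 20239 genes in all). In each form 5 were higher and 0 lower at an unadjusted p under 0.05 (limma), against 11.2% and 14.9% of all genes in either direction. Every array labelled Hspa4-/- was above wild type in 6 with 6 arrays (6.08% of all genes) and 7 with 5 (14.4%). Every one was below in 0 with 6 arrays (9.07%) and 1 with 5 (18.9%). The table holds no background level, so no marker can be called absent, and the part of cell makeup in the class II values was not tested.

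**Figure D5:**
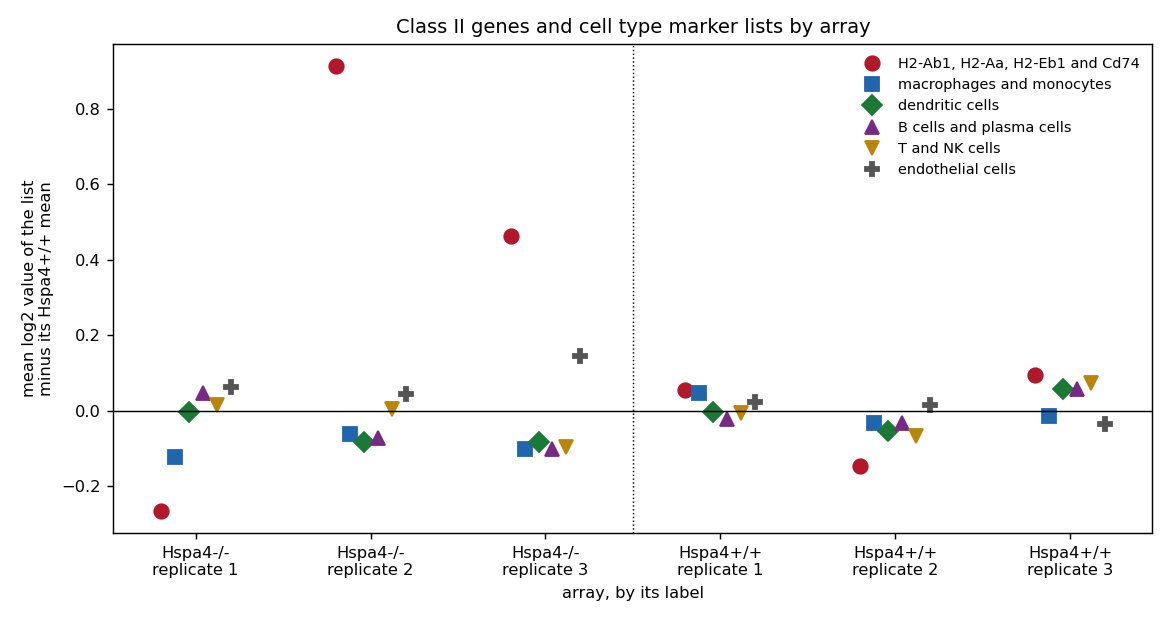
Mean log2 value over H2-Ab1, H2-Aa, H2-Eb1 and Cd74 and over 5 lists of cell type markers, each minus its own Hspa4+/+ mean (vertical axis), on the 6 arrays by label (horizontal axis). The 4 class II genes averaged 8.77 and 8.32 on replicates 2 and 3 labelled Hspa4-/-, with 7.59 on replicate 1, against 7.71 to 7.95 in wild type, while the macrophage markers lie below every wild-type array on all 3.

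The genes whose values followed the 4 class II genes most closely over the 6 arrays were found by the root mean square (RMS) difference between centred log2 values. It is a description over 6 arrays that share the labels and the array labelled Hspa4-/- replicate 1. Centred on their own means, the 4 genes averaged −0.45, 0.73 and 0.28 on the arrays labelled Hspa4-/- replicates 1 to 3, against −0.13, −0.33 and −0.10 in wild type. Their own RMS differences from that profile were 0.0414 to 0.146, and a gene that did not vary would be at 0.399. The transcription factor gene Myc was nearest, at 0.0861. It read 7.87 and 7.42 on replicates 2 and 3 labelled Hspa4-/-, with 6.86 on replicate 1, against 6.97, 6.84 and 6.93 in wild type. Next came the immunity-related GTPase Igtp (0.0878) and H2-K1 (0.123), and the GTPase Gbp4 was sixth (0.147). Scd4, the titin-cap gene Tcap, Smpx, Dct, Fam122b and Tmem71 made up the 10, at 0.143 to 0.16.

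Tap1, Tap2, Tapbp and B2m shared no such profile. Their RMS differences from their own mean profile were 0.0578 to 0.213, where a gene that did not vary would be at 0.118. The mean profile ran at −0.04, 0.21 and 0.09 across replicates 1 to 3 labelled Hspa4-/- and −0.14, −0.08 and −0.05 in wild type. The 10 nearest genes, picked for the smallest RMS difference among all other genes, were led by Epb41l4b at 0.0213 and Gm4924 at 0.0220. Dhx33, Brd2, Mrps21, Rabac1, Abcc1, Dclre1b, Stoml2 and Tpst1 made up the 10, at up to 0.0393. Brd2, the neighbour of H2-DMa on chromosome 17, differed by 0.22 with 6 arrays and 0.31 with 5.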

How the data were processed

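Values were taken as the authors deposited them, on the log2 scale, 1 for each of 21225 probe sets and 6 arrays. The submitters' processing notes name the affy package and R 2.13.0; how background, normalisation and summary were handled is not stated there. Probe set numbers are Entrez gene numbers, and 20239 carried 1 symbol in the platform annotation (986 none). All value columns were used, and no array was a copy of another (11 to 30 identical values per pair). The table gives no background, so the number of arrays limits precision.

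Each difference is Hspa4-/- minus wild type by label, from limma 3.58.1 (R 4.3.3, lmFit and eBayes) over 20239 genes and Benjamini-Hochberg adjustment over all of them; the step was tested on simulated data. The 10 genes, the 14 lists (5 pathway, 9 cell type marker), the motifs and the form without the array labelled Hspa4-/- replicate 1 were chosen with earlier results of these data known. List genes without a probe set were not analysed here. Of each pathway list the 4 genes with the smallest p were named where none passed, and of the markers a fixed set. Nearest genes were ranked by RMS difference. Promoters are RefSeq's (GRCm38.p6), 250 bases before to 50 after the start, and that assembly's gene table gave the gene order. Low-value filters, normalisation, array weights, the variance prior, a replicate block and leaving out each array were alternatives.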

Additional observations from a re-analysis of the deposited data

How the results depend on the processing

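The median difference of the 10 genes stayed above 0 in every alternative run: it was 0.28 with 6 arrays (0.12 to 0.43 leaving out 1 array) and 0.43 with 5 (0.33 to 0.47). With the lowest 50% of genes left out, which removes H2-DMa and Ciita, it was 0.55 with 5 arrays. Among single members, Ciita turned to −0.017 with 6 arrays without wild-type replicate 2, and B2m to 0.08 with 5 without the array labelled Hspa4-/- replicate 3. The number of genes past the threshold (limma) was 0 with 6 arrays, 2 with either low-value filter, 115 with array weights, 2 with the replicate block and 0 to 112 leaving out 1 array (89 without the array labelled Hspa4-/- replicate 1, 112 without wild-type replicate 2). With 5 arrays it was 89, and 156 and 167 with the lowest 25% and 50% left out, 36 with array medians subtracted, 321 with array weights, 134 with the replicate block and 2 to 875 leaving out 1 array: without 1 array labelled Hspa4-/- it was 25 (replicate 2) or 19 (replicate 3), and without 1 wild-type array 6 (replicate 1), 875 (replicate 2) or 2 (replicate 3). A lone array was then assumed to vary like wild type, and the cause of these moves was not tested. Same-numbered arrays did not deviate together (r = −0.17, 0.09 and −0.25 over genes), so the block has no basis in pairing. With 5 arrays Irgm2 passed (limma) with either filter, with array weights, with the trended prior, with the block and without wild-type replicate 2 (adjusted p = 0.0180 to 0.0450), and Psme1 with either filter, quantile normalisation, array weights and without wild-type replicate 2 (adjusted p = 0.0283 to 0.0477). Without wild-type replicate 2, where 875 genes passed, Irgm1 (0.69, adjusted p = 0.0121), Rfxank (0.37, adjusted p = 0.0329) and Canx (−0.35, adjusted p = 0.0480) passed as well (limma, 5 arrays). Oasl1 changed sign near 0. With 6 arrays it ran from −0.0048 (without the array labelled Hspa4-/- replicate 1) to 0.22 leaving out 1 array. With 5 arrays it ran from −0.036 to 0.026 (0.0054 without wild-type replicate 2), and was 0.0012 with quantile normalisation and 0.0043 with array medians subtracted. H2-T22 with 5 arrays ran from −0.0047 (without the array labelled Hspa4-/- replicate 2) to 0.7 (without replicate 3).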
